A study of Mus musculus with 21 samples.

Results

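Mouse embryonic fibroblasts (MEF) in which Prrx1 was targeted with CRISPR/Cas9 (sgPrrx1 MEF, 3 cultures) were compared with MEF from mice that inherit a mutant Prrx1 allele (mutant MEF, 3 cultures), by RNA-seq counts over all 24532 genes of the table. These are 6 of the 21 fibroblast cultures of the series, chosen by genotype, and the 3 WT MEF cultures served to show which of the groups lay away from the unmodified level. The comparison asks how far 2 ways of targeting Prrx1 left the same cell type in the same transcriptional state. The strain of all 9 cultures is given as C57BL/6. Mutant MEF came from the line 129S-Prrx1tm1Jfm/Mmmh, backcrossed to C57BL6, whose Prrx1 homeodomain is interrupted by LacZ in exon 2. All MEF were prepared from embryos harvested between E10 and E13, immortalised with the human papillomavirus oncogenes E6 and E7, and kept in DMEM with 10% serum without further treatment. The sgPrrx1 MEF received Cas9 with a guide RNA against the first exon of Prrx1. A nontargeting guide (SgNS) is described as the WT control, and whether the WT MEF carried it was not stated for MEF alone. The labels give neither the zygosity of the mutant cells nor whether the 3 cultures of a group came from separate embryos, infections or clones. The p-values therefore measure the spread between these cultures, which may be technical, and the kind of allele, the embryo of origin and the exposure to Cas9 cannot be told apart between sgPrrx1 and mutant MEF.

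Prrx1 is a paired-related homeobox gene. Its protein binds AT-rich DNA through the homeodomain, and in the embryo it marks the mesenchyme of the limb buds and the face, where mutant mice have skeletal defects. In adult tissues it is expressed by fibroblasts and has been tied to their activation into myofibroblasts, contractile cells that deposit collagen. Prrx2 is its closest relative, with overlapping roles in the limb. MEF are a mixture of embryonic mesenchymal cells, so their Hox genes and limb transcription factors reflect where in the body the founding cells came from.

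The alleles interrupt different coding exons, which are shown because they show where each allele lies. Both sequences are from the Gencode M1 transcripts of Prrx1 (chromosome 1, minus strand, NCBIM37). The first exon, cut by the guide, carries 241 coding bases at chr1:165242526-165242766, and the start codon is in capitals. The second exon, interrupted by LacZ in the mutant mice, has 176 bases at chr1:165191971-165192146, all of them coding. Reads were counted per gene and not per exon, so a Prrx1 count does not show whether a protein can be made from the transcript. How the LacZ insert changes the reads counted for Prrx1 in mutant MEF cannot be told from these counts.
Prrx1 exon 1, coding part: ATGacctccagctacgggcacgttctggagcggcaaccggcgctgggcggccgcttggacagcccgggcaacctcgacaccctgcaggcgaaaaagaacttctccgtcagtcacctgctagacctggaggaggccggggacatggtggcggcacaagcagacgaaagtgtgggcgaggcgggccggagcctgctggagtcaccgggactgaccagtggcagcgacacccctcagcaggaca
Prrx1 exon 2: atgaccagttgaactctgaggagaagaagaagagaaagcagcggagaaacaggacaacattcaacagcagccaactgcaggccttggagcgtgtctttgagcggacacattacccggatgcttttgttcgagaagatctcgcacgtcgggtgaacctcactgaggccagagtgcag

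The study's methods name a batch correction of counts (ComBat-seq), and whether it was applied to these counts is not stated. The 9 MEF cultures had between 71250774 and 88418420 counts, and the 20 most abundant genes took 7.73 to 10.6% of them. Levels are given as CPM (counts scaled to a common library total after TMM scaling, with 1 scale over all 9 cultures), and intervals or floors drawn from counts cover counting error only. In every culture the fibroblast genes Vim, Col1a1 and Col1a2 were abundant: Col1a2 was measured at 1493, 1428 and 1377 CPM in sgPrrx1 MEF and 1708, 1796 and 1818 CPM in mutant MEF. Defining markers of endothelial cells were near 0 (8 genes summed to 1.54 to 2.09999 CPM in sgPrrx1, 1.997 to 2.53 CPM in mutant and 4.52 to 5.03 CPM in WT MEF). These fibroblast genes were thus abundant in both models, but not all fibroblast markers were kept at the WT level. The 10 fibroblast markers summed to 9369 to 11214 CPM in sgPrrx1, 5454 to 6595 CPM in mutant and 12318 to 12643 CPM in WT MEF. Of these markers, Dcn and Pdgfra, given below, were lower in both models than in WT MEF. For the sex chromosomes, Xist was at or below 0.134 CPM in all 9 cultures, and the Y-linked Ddx3y, Uty and Eif2s3y were counted in all of them. The Y-linked demethylase gene Kdm5d had 654, 654 and 676 counts in sgPrrx1 MEF, while mutant MEF had 0, 3 and 0. Usp9y, also Y-linked, was at 0 in sgPrrx1 MEF and at 2.39, 1.91 and 1.45 CPM in mutant MEF. WT MEF had the pattern of sgPrrx1 MEF for both genes, with Kdm5d at 11.4, 10.4 and 10.3 CPM and Usp9y at 0 CPM.

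Counts of Prrx1 itself differed between the 2 models. Relative to the mean of WT MEF, the sgPrrx1 cultures held 68.8, 51.6 and 75.8% of the Prrx1 counts, and the mutant cultures 14.3, 11.3 and 10.7%. Prrx1 was measured at 121, 90.6 and 133 CPM in sgPrrx1 MEF (115 ± 21.8, SD, n = 3), 25.1, 19.8 and 18.8 CPM in mutant MEF (21.2 ± 3.39) and 187, 162 and 178 CPM in WT MEF (175 ± 12.8). The 3 groups did not overlap. Prrx1 was 5.43-fold higher in sgPrrx1 than in mutant MEF (log2 fold change 2.44, SE 0.182, adjusted p = 6.79e-05, edgeR quasi-likelihood test with Benjamini-Hochberg adjustment). An exact two-sided permutation test of the Prrx1 level gave p = 0.1, the smallest that 3 cultures against 3 allow. A guide that disables the reading frame need not lower the RNA, so the level in sgPrrx1 MEF says little about how many alleles were cut. In mutant MEF the LacZ insert may alter how many reads are counted for Prrx1, so the level there need not equal the amount of transcript. Prrx2, the paralogue of Prrx1, did not pass the test (86.7, 77.1 and 71.3 CPM in sgPrrx1 MEF and 62.9, 75.1 and 81.8 CPM in mutant MEF, log2 fold change 0.10, SE 0.117, adjusted p = 0.482), with a 95% interval of -0.18 to 0.39 for the log2 fold change.

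The 2 Prrx1-targeted groups were far apart over the whole transcriptome. Of 13379 genes tested, 7513 (56.2%) differed at an adjusted p under 0.05, 3715 (27.8%) with higher expression in sgPrrx1 MEF and 3798 (28.4%) with higher expression in mutant MEF. Beyond a 2-fold difference (glmTreat, edgeR's test against a minimum fold), 958 genes (7.16%) were higher in sgPrrx1 and 940 (7.03%) in mutant MEF. With over 50% of the genes called, the count of called members in a gene group below is read against these shares, and the 2-fold call is the more selective one. The median log2 fold change over all tested genes was -0.02, a value that TMM scaling sets close to 0.

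Most of the genes that separated the models did so because mutant MEF lay away from WT. Among the 1898 genes that differed beyond 2-fold, the mutant mean was further from the WT mean in 1492 (78.6%) and the sgPrrx1 mean in 406 (21.4%). The sgPrrx1 mean was within 2-fold of WT for 1287 of these genes and the mutant mean for 378. The median distance from WT on the log2 scale was 0.61 in sgPrrx1 and 1.89 in mutant MEF, with 0.1 CPM added before taking the logarithm. Against WT, 5764 of 13372 genes (43.1%) were called in sgPrrx1 MEF and 678 (5.07%) beyond 2-fold, of which 52 (0.389%) were higher and 626 (4.68%) lower than in WT. In mutant MEF 8155 of 13616 genes (59.9%) were called and 2000 (14.7%) beyond 2-fold, 660 (4.85%) higher and 1340 (9.84%) lower. Both of these comparisons use the same 3 WT cultures.

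**Figure D1:**
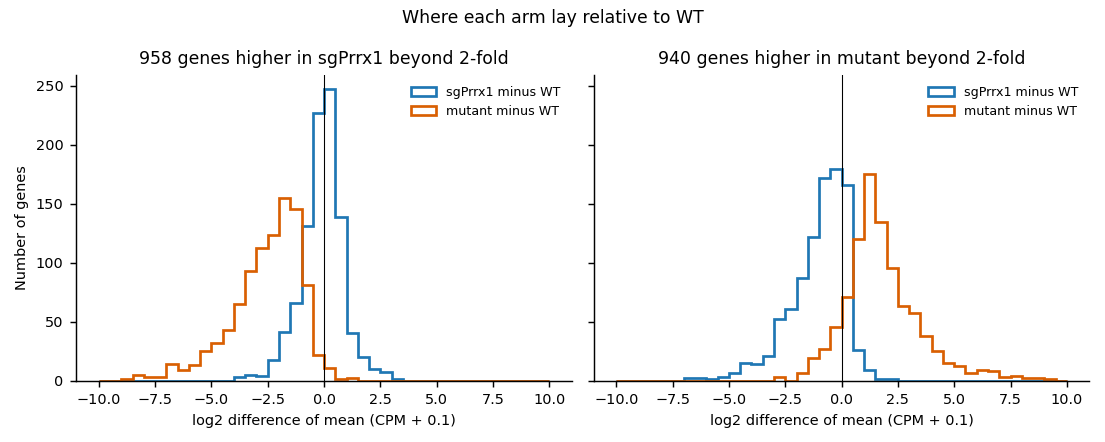
Histograms of the log2 difference from the WT mean (x axis, mean CPM plus 0.1) against the number of genes (y axis), for the 958 genes higher in sgPrrx1 MEF (left) and the 940 higher in mutant MEF (right) beyond 2-fold; blue lines show sgPrrx1 and orange lines mutant MEF. The blue distributions lie closer to 0, and the orange ones extend below 0 on the left and above 0 on the right.

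The largest differences were genes that one group expressed and the other lacked. Of the genes with at least 5 CPM in sgPrrx1 MEF, 10 had no count in any mutant culture, and all 10 were expressed in WT MEF at 1 CPM or more. Pitx1, a homeobox gene of the hindlimb, was measured at 25.6, 32.6 and 33.002 CPM in sgPrrx1 MEF, 0 in mutant MEF and 19.4, 19.7 and 26.4 CPM in WT MEF, which makes it at least 2447-fold higher in sgPrrx1 MEF (against a floor of 3 counts over the mutant group). Alx1, a homeobox gene of the facial mesenchyme, was at 10.3, 8.95 and 9.45 CPM in sgPrrx1 MEF and 10.3, 9.84 and 8.66 CPM in WT MEF, again with 0 in the mutant (at least 770.4-fold). These are genes that mutant MEF did not express at this depth. Wt1, a zinc finger factor of mesothelium and kidney, had 13.998, 14.2 and 14.4 CPM in sgPrrx1 MEF and 6.699, 6.78 and 6.59 CPM in WT MEF, and was at least 1142-fold higher than in mutant MEF. Ptprz1, a receptor phosphatase, and Ldb2, a cofactor of LIM-domain proteins, had means of 11.9 and 10.03 CPM in sgPrrx1 MEF and no count in the mutant. The interferon-inducible Ifi209 and the endothelial membrane protein Ecscr had means of 17.7 and 7.33 CPM against 0. Gfra2, the neurturin receptor, was at 38.8, 41.7 and 40.1 CPM in sgPrrx1 MEF, 0.0248, 0 and 0 CPM in mutant MEF and 10.4, 9.58 and 12.97 CPM in WT MEF. The count ratio for Gfra2 was 4849 (95% counting interval 1342 to 40048).

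In the other direction, 20 genes with at least 5 CPM in mutant MEF had no count in any sgPrrx1 culture, and 19 of these were under 1 CPM in WT MEF. Sall1, a zinc finger factor of limb and kidney, was measured at 50.6, 48.6 and 50.5 CPM in mutant MEF, at 0 in sgPrrx1 MEF and at 0 CPM in WT MEF, so that it was at least 3711-fold higher in the mutant. Tbx4, the T-box gene of the hindlimb, was at 23.004, 29.3 and 32.9 CPM in mutant MEF and 0 in the other 6 cultures (at least 2112-fold higher than in sgPrrx1 MEF). Hoxa11 was at 42.7, 31.1 and 23.4 CPM in mutant MEF against 0 in sgPrrx1 and 0, 0 and 0.0446 CPM in WT MEF (at least 2409-fold higher than in sgPrrx1 MEF). Pitx1, which lies upstream of Tbx4 in the hindlimb, thus had the opposite pattern to Tbx4 across the groups. Eya2, a partner of homeobox factors in muscle and kidney, and Zic1, a zinc finger factor of somites and neural tissue, had means of 20.8 and 19.6 CPM in mutant MEF and 0 in sgPrrx1 MEF. The kinase gene Ripk4, the neutrophil chemokine gene Cxcl5, the X-linked Fndc3c1 and the interferon-inducible Ifi202b had mutant means of 30.5, 15.5, 46.4 and 18.7 CPM, also against 0. Ifi202b and Ifi209 belong to 1 family of related interferon-inducible genes, and how the counting assigned reads among its members was not tested.

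Hox genes, which mark position along the body, differed in both directions. Hox clusters are read along the body axis, and the genes at their 5′ end (numbers 9 to 13) are expressed towards the tail and the tips of the limbs. Of 36 tested Hox genes, 22 were higher in sgPrrx1, 10 were higher in mutant MEF and 4 did not pass the test, with 12 and 9 beyond 2-fold. The 10 genes higher in mutant MEF were all in the A and D clusters, and 8 of them had numbers from 9 to 13. Hoxd13, the most distal D gene, was measured at 125, 109.7 and 115 CPM in mutant MEF, 0, 0.0564 and 0 CPM in sgPrrx1 MEF and 0.0987, 0 and 0 CPM in WT MEF. Hoxd11 was at 14.3, 12.6 and 13.5 CPM in mutant MEF and Hoxa13 at 4.86, 4.13 and 3.85 CPM, and both were at 0 in all sgPrrx1 and all WT cultures. Hoxa9 and Hoxa10 had means of 21.1 and 22.5 CPM in mutant MEF against 1.65 and 1.29 CPM in sgPrrx1 MEF. Hoxa11, Hoxa13, Hoxd11 and Hoxd13 were therefore high in the mutant cultures alone.

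Genes of the B and C clusters lay the other way. Every tested Hoxb gene (9 of 9) was called higher in sgPrrx1 MEF, as were 7 of 8 tested Hoxc genes, all but Hoxc10 (0.843, 0.849 and 1.25 CPM as means of sgPrrx1, mutant and WT MEF). Hoxb9 was measured at 39.4, 38.03 and 40.99 CPM in sgPrrx1 MEF and 2.9003, 2.62 and 2.197 CPM in mutant MEF (log2 fold change 3.94, SE 0.121, adjusted p = 2.52e-06), and WT MEF had 29.7, 29.5 and 30.02 CPM. Hoxc8 was at 27.5, 28.9 and 29.2 CPM in sgPrrx1 MEF, 4.21, 3.63 and 3.31 CPM in mutant MEF and 63.3, 54.6 and 46.8 CPM in WT MEF (log2 fold change 2.95, SE 0.111, adjusted p = 4.94e-06). Hoxb2 and Hoxc5 differed by 3.29 and 4.18 on the log2 scale. For both Hoxb9 and Hoxc8 the mutant cultures were the lowest of the 9. Hoxa9, Hoxa10, Hoxc10 and the counts per cluster are outside the rule for named genes and were chosen after their values were seen.

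**Figure D2:**
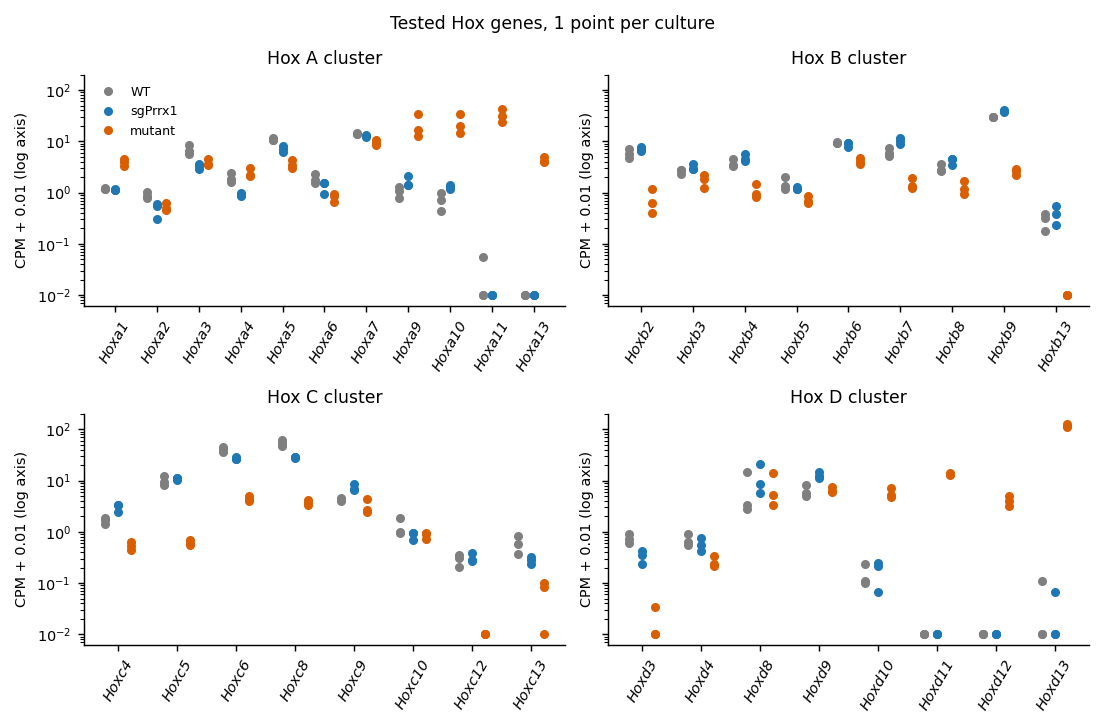
CPM plus 0.01 on a log axis for the 36 tested Hox genes, in 1 panel per cluster and ordered by gene number, with 1 point per culture (grey WT, blue sgPrrx1, orange mutant MEF). Orange points are high at Hoxa9 to Hoxa13 and Hoxd10 to Hoxd13, where blue and grey points are low, and they lie below the blue points at the B and most C cluster genes.

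Promoters of Hoxd11 and Hoxd13 are shown because both genes were high in mutant MEF and lie in the same cluster on chromosome 2, with Hoxd12 between them. The sequences are from RefSeq on GRCm38.p6, which is the mm10 build of the counts, and run from 250 bases before to 50 after the start of the gene. The capitals mark TAATTA, a core that homeodomain proteins of the paired class can bind; it reads the same on both strands. It occurred in 5.29% of the 32851 promoters of the same length in the table, in the Hoxd11 promoter at chr2:74679308-74679607 (plus strand), and not in that of Hoxd13 at chr2:74667975-74668274 (plus strand). Of the 7 promoters listed for Hoxa11, Hoxa13, Hoxd11, Hoxd12, Hoxd13 and Tbx4, 2 held it, both of them of Hoxd11. A match in the letters is not a measured binding site.
Hoxd11 promoter: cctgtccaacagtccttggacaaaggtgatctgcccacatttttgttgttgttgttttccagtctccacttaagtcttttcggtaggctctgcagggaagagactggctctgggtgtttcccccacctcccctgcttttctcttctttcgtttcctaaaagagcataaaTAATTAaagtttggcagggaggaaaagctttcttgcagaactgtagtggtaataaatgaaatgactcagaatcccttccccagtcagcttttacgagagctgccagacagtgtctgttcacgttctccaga
Hoxd13 promoter: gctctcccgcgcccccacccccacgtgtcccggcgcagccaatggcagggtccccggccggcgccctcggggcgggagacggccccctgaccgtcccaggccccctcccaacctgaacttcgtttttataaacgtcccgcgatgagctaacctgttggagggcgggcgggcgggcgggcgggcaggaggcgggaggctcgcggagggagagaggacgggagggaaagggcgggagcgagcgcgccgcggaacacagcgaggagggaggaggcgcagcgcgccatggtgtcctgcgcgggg

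Other transcription factors that pattern the limb and trunk were split evenly. Of 28 tested, 11 were higher in sgPrrx1, 11 were higher in mutant MEF and 6 did not pass the test, and 9 in each direction passed 2-fold. Besides Pitx1 and Alx1, the Hox cofactor Meis1 was higher in sgPrrx1 MEF, at 33.3, 34.2 and 30.6 CPM against 6.82, 6.89 and 7.301 CPM in mutant MEF (log2 fold change 2.23, SE 0.0779, adjusted p = 3.80e-06), and WT MEF had 67.9, 67.1 and 59.4 CPM. The homeobox gene Emx2 differed likewise, with means of 22.9, 5.56 and 29.9 CPM in sgPrrx1, mutant and WT MEF. Pax9, a paired box gene of the face, limbs and vertebral column, was higher in mutant MEF, at 38.5, 42.8 and 46.1 CPM against 0.256, 0.367 and 0.244 CPM (log2 fold change -7.19, SE 0.1699, adjusted p = 1.50e-06). Irx3 and Pax3 were higher in mutant MEF too, with means of 11.6 and 1.15 CPM against 0.316 and 0 CPM. Among mesenchymal factors, Msx1 and Osr1 were higher in mutant MEF (log2 fold changes of -2.11 and -1.33), and Zeb2 was higher in sgPrrx1 MEF (0.91). Twist2 and Snai2 differed less, by 0.38 and 0.30, and Twist2 did not pass the test without mutant replicate 2 (0.36). Neither Twist2 nor Snai2 passed with a replicate block.

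The 18 transcription factors that the study placed in the core circuit of WT MEF differed about as often as other genes: 4 were higher in sgPrrx1, 7 were higher in mutant MEF and 7 did not pass the test, that is 61.1% called against 56.2% of all tested genes. The study drew this list from WT cells of the same work, so its direction is not independent evidence. Together 3 factors, Prrx1 included, passed 2-fold. Klf4, a zinc finger factor tied to growth arrest, was measured at 154, 158 and 165 CPM in sgPrrx1 MEF, 13.8, 14.9 and 13.7 CPM in mutant MEF and 108, 113 and 133 CPM in WT MEF (log2 fold change 3.50, SE 0.0703, adjusted p = 1.08e-06). Foxp1, a forkhead repressor, was at 31.7, 28.7 and 37.03 CPM in sgPrrx1, 185, 123 and 173 CPM in mutant and 53.5, 50.7 and 48.1 CPM in WT MEF (log2 fold change -2.30, SE 0.182, adjusted p = 8.81e-05). For Klf4 the mutant cultures were below the other 6, and for Foxp1 they were above them. Hes1 and Fosl2 were higher in mutant MEF by smaller amounts (-0.95 and -0.79), while Prrx2, Tead4, Nfix, Tcf4, Sox4, Atf4 and Jund did not pass the test. Without mutant replicate 2 the factors higher in sgPrrx1 MEF numbered 2 and not 4. A replicate block left 2 higher in sgPrrx1 and 4 higher in mutant MEF. Of the 7 that did not pass, Tcf4 passed without mutant replicate 1 (-0.17), Tead4 without mutant replicate 3 (0.30), and Nfix and Atf4 without sgPrrx1 replicate 1 (0.59 and 0.40).

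**Figure D3:**
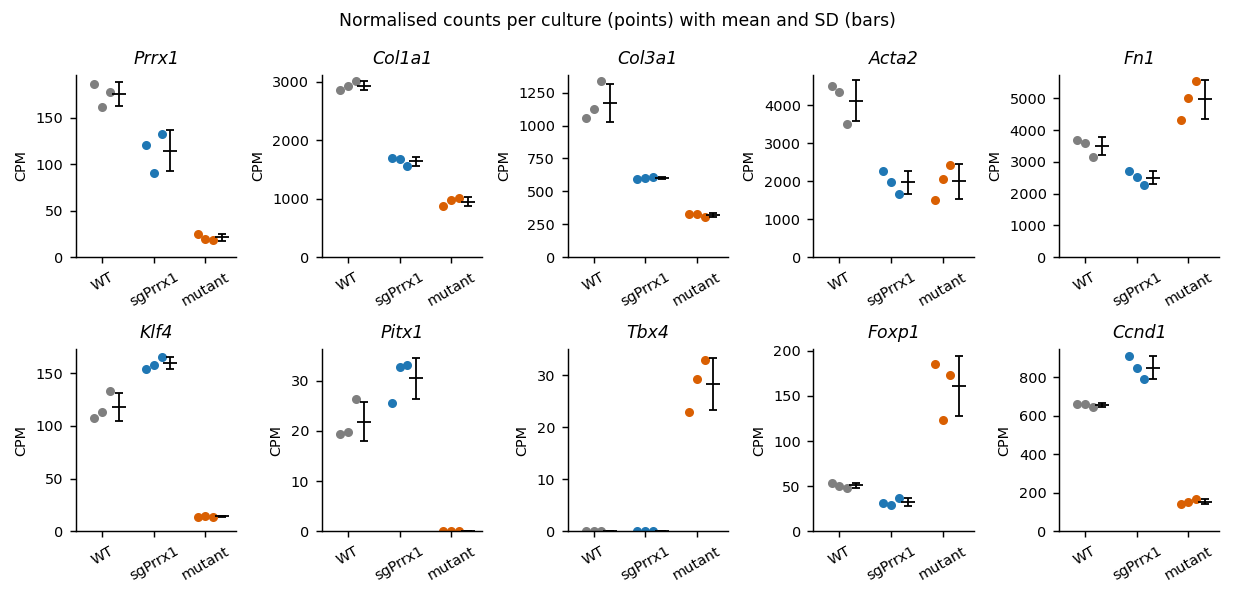
CPM on linear axes from 0 for 10 genes in the 3 WT, 3 sgPrrx1 and 3 mutant MEF cultures (points), with the mean and SD of each group beside them. Prrx1, Col1a1 and Col3a1 stand in the order WT, sgPrrx1, mutant; Pitx1, Klf4 and Ccnd1 are low and Tbx4, Foxp1 and Fn1 high in mutant MEF, and the Acta2 points of sgPrrx1 and mutant MEF overlap.

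Matrix genes did not move as a block. Col1a1, Col3a1 and Postn, which encode the main fibrillar collagens and the matricellular protein periostin, were lower in mutant than in sgPrrx1 MEF, while fibronectin, tenascin C and several minor collagens were higher in mutant MEF. Col1a1 was measured at 1695, 1679 and 1554 CPM in sgPrrx1 MEF, 868, 972 and 1007 CPM in mutant MEF and 2857, 2930.2 and 3016 CPM in WT MEF (log2 fold change 0.80, SE 0.0827, adjusted p = 3.00e-04). Col3a1 was at 591, 603 and 609 CPM, 326, 329 and 306 CPM and 1059, 1128 and 1337 CPM in the same order (log2 fold change 0.91, SE 0.0604, adjusted p = 4.12e-05). The groups of Col1a1 and Col3a1 did not overlap, and both models lay below WT. Col1a2, the partner chain of Col1a1, was instead slightly lower in sgPrrx1 than in mutant MEF (-0.30, SE 0.0688), again with both below WT. The Col1a2 difference did not pass the test with a replicate block. Postn was at 71.5, 68.6 and 69.3 CPM in sgPrrx1, 9.37, 8.01 and 7.96 CPM in mutant and 297, 312 and 284 CPM in WT MEF (log2 fold change 3.05, SE 0.0907, adjusted p = 2.42e-06).

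Among 10 tested fibrillar collagen genes, 3 were higher in sgPrrx1, 5 were higher in mutant MEF and 2 did not pass the test. Col11a1, Col2a1 and Col11a2, genes of cartilage collagens, were higher in mutant MEF, with means of 60.8, 9.38 and 1.64 CPM against 0.2098, 0.169 and 0.442 CPM in sgPrrx1 MEF. Col5a2, which shapes collagen I fibrils, was at 2955, 2964 and 2916 CPM in mutant MEF against 1050.2, 1059.7 and 1053 CPM in sgPrrx1 MEF (log2 fold change -1.47, SE 0.0648, adjusted p = 8.42e-06). The other 13 tested collagens were mostly higher in mutant MEF (9 higher there, 2 higher in sgPrrx1 MEF, median log2 fold change -0.87 against -0.02 over all tested genes). The 2 higher in sgPrrx1 MEF became 1 without any 1 of the 3 mutant replicates or sgPrrx1 replicate 3, and 0 with a replicate block. Col12a1, a fibril-associated collagen, was at 539, 546 and 549 CPM in mutant MEF, 38.7, 41.7 and 39.7 CPM in sgPrrx1 MEF and 174, 169 and 161 CPM in WT MEF, so that the models lay on opposite sides of WT. The chondrocyte factor Sox6 had a mean of 6.28 CPM in mutant MEF against 0.009398 CPM, while Sox9, which acts upstream of it, was higher in sgPrrx1 MEF (0.76); the 12 cartilage and bone markers summed to 34.9 to 35.7 CPM in sgPrrx1, 36.6 to 38.3 CPM in mutant and 19.6 to 21.98 CPM in WT MEF.

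Basement membrane genes were split between collagen IV and laminins. Of 19 tested, 7 were higher in sgPrrx1, 8 were higher in mutant MEF and 4 did not pass the test. Nid1, which links laminin to collagen IV, was measured at 2118, 1907 and 1747 CPM in sgPrrx1 MEF, 159, 186 and 213 CPM in mutant MEF and 1119, 1141 and 1007 CPM in WT MEF (log2 fold change 3.38, SE 0.139, adjusted p = 6.61e-06). Col4a1 and Col4a2, adjacent genes that encode the common collagen IV chains, were also higher in sgPrrx1 MEF, by 1.90 and 1.85 on the log2 scale. The laminin chains Lama2, Lama4 and Lama5 were all higher in mutant MEF, with mutant means of 52.6, 9.84 and 96.6 CPM and sgPrrx1 means of 0.154, 0.0475 and 2.24 CPM. Lama4 was at a mean of 10.1 CPM in WT MEF, so here it was the sgPrrx1 cultures that lay away from WT.

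Of 16 tested matricellular genes, 5 were higher in sgPrrx1, 10 were higher in mutant MEF and 1 did not pass the test. Fn1, the fibronectin gene, was measured at 2712, 2529 and 2277 CPM in sgPrrx1, 4319, 5024 and 5555 CPM in mutant and 3697, 3604 and 3168 CPM in WT MEF (log2 fold change -0.98, SE 0.121, adjusted p = 6.60e-04). The sgPrrx1 cultures were below WT and the mutant cultures above it. Tnc, which encodes tenascin C, was at 269, 246 and 221 CPM in sgPrrx1 and 564, 687 and 764 CPM in mutant MEF (log2 fold change -1.45, SE 0.1299, adjusted p = 1.54e-04), with WT MEF at 625, 609 and 547 CPM. Thbs1 and Thbs2, the thrombospondins, were higher in mutant MEF by -2.04 and -2.86 (sgPrrx1 minus mutant). The mutant level of Tnc overlapped WT and that of Thbs2 did not reach it. Tgfbi had means of 0.251, 14.9 and 11.3 CPM in sgPrrx1, mutant and WT MEF.

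Among proteoglycans, Dcn (decorin) was higher in sgPrrx1 MEF, at 8.19, 9.32 and 9.85 CPM against 0.0992, 0.226 and 0.0834 CPM in mutant MEF (log2 fold change 6.02, SE 0.291, adjusted p = 1.18e-05), and WT MEF had 42.7, 46.7 and 52.6 CPM. Prelp was at 1.05, 1.04 and 0.952 CPM in sgPrrx1 MEF and 0 in mutant MEF. Ogn (osteoglycin) had means of 4.0999, 49.98 and 56.5 CPM in sgPrrx1, mutant and WT MEF and was lowest in sgPrrx1 MEF. Of the elastic fibre genes, Fbn2, the fibrillin of the embryo, was at 41.5, 51.7 and 55.7 CPM in mutant MEF and a mean of 0.0263 CPM in sgPrrx1 MEF, whereas Ltbp2 was at 94.5, 89.9 and 80.2 CPM in sgPrrx1 MEF and 3.01, 3.24 and 3.78 CPM in mutant MEF. Crosslinking and folding enzymes had the lowest share of called genes among these matrix groups: 8 of 15 did not pass the test and none passed 2-fold. For the proteases, Mmp2 (gelatinase A) was at 362, 361 and 322 CPM in sgPrrx1 MEF, 75.98, 83.9 and 89.5 CPM in mutant MEF and 317, 344 and 367 CPM in WT MEF (log2 fold change 2.07, SE 0.0875, adjusted p = 7.26e-06). Plau (urokinase) and its inhibitor Serpine2 were higher in mutant MEF (-1.42 and -1.40).

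Genes of the contractile apparatus showed no common direction. Of 19 tested, 7 were higher in sgPrrx1, 7 were higher in mutant MEF and 5 did not pass the test, with 1 in each direction beyond 2-fold. The 7 higher in sgPrrx1 MEF numbered 4 without mutant replicate 2, and also without sgPrrx1 replicate 1 or 2 or with a replicate block. Acta2, which encodes alpha smooth muscle actin, was measured at 2273, 1981 and 1661 CPM in sgPrrx1 MEF, 1509, 2061 and 2417 CPM in mutant MEF and 4495, 4338 and 3493 CPM in WT MEF. The 2 models overlapped for Acta2 and both lay below WT (log2 fold change -0.01, SE 0.193, adjusted p = 0.969 between the models, 95% interval -0.47 to 0.45). Cnn1 (calponin) was higher in mutant MEF (log2 fold change -1.46, SE 0.106, adjusted p = 6.21e-05) and Tpm2 (tropomyosin beta) in sgPrrx1 MEF (log2 fold change 1.27, SE 0.0725, adjusted p = 2.25e-05). Palld and Tpm1 were higher in mutant MEF by -1.05 and -0.81. The reference genes Actb, Gapdh and Hprt did not pass the test (log2 fold changes -0.15, -0.31 and 0.06), but Gapdh passed without mutant replicate 1 (-0.46).

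In the TGF-beta pathway, which drives myofibroblast formation, members differed both ways. Of 26 tested genes, 9 were higher in sgPrrx1, 9 were higher in mutant MEF and 8 did not pass the test. Among ligands, Tgfb2 was measured at 3.33, 3.65 and 3.92 CPM in sgPrrx1, 38.1, 30.98 and 29.01 CPM in mutant and 7.38, 7.004 and 8.51 CPM in WT MEF (log2 fold change -3.16, SE 0.138, adjusted p = 8.20e-06). Tgfb1 did not pass the test (log2 fold change 0.26, SE 0.09696, adjusted p = 0.0568), and passed without mutant replicate 1 (0.32). Among transducers, Smad3 was higher in mutant MEF, at 84.1, 94.04 and 93.2 CPM against 62.5, 60.04 and 55.2 CPM (log2 fold change -0.60, SE 0.0761, adjusted p = 7.18e-04). Target and feedback genes Smad6, Pmepa1 and Id3 were higher in mutant MEF (-2.80, -1.89 and -1.74). The secreted BMP and activin antagonists Grem1, Nog and Fst were higher in sgPrrx1 MEF, with Grem1 at 224, 221 and 196 CPM against 61.7, 72.2 and 80.04 CPM in mutant MEF and Nog and Fst differing by 2.57 and 1.09.

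Integrins, the receptors for matrix proteins, differed in both directions. Of 18 tested subunits, 7 were higher in sgPrrx1, 8 were higher in mutant MEF and 3 did not pass the test. Itga6, a laminin receptor subunit, was measured at 191, 206 and 224 CPM in sgPrrx1, 13.7, 11.5 and 9.72 CPM in mutant and 55.4, 59.9 and 62.2 CPM in WT MEF (log2 fold change 4.16, SE 0.152, adjusted p = 4.31e-06). Itgb5, a partner of the alpha V subunit, was at 79.9, 71.9 and 65.8 CPM, 330.3, 376 and 415 CPM and 161, 151 and 148 CPM in the same order (log2 fold change -2.36, SE 0.114, adjusted p = 1.18e-05). For each gene the models lay on opposite sides of WT. The collagen receptor subunit Itga11 had means of 0.245, 11.9 and 6.48 CPM in sgPrrx1, mutant and WT MEF. Itgb7 had means of 37.7, 0.494 and 19.1 CPM, so that it was nearly missing from mutant MEF.

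For growth factor signalling, 21 genes of the PDGF, FGF and IGF systems were tested, and 11 were higher in sgPrrx1, 5 were higher in mutant MEF and 5 did not pass the test (median log2 fold change 0.44). Without mutant replicate 1, 8 and not 5 were higher in mutant MEF. The binding proteins of insulin-like growth factors were prominent. Igfbp6 was measured at 92.2, 107 and 126 CPM in sgPrrx1 MEF, 6.36, 5.31 and 4.33 CPM in mutant MEF and 44.3, 48.5 and 63.6 CPM in WT MEF (log2 fold change 4.35, SE 0.194, adjusted p = 8.92e-06). Igfbp3, Igfbp4 and the ligand Igf2 were higher in sgPrrx1 MEF by 4.44, 2.63 and 4.71. Igfbp5 and Igf1 were higher in mutant MEF (-3.66 and -2.74), although Igf1 remained below WT there (means 1.43 and 10.9 CPM). Fgf7, the keratinocyte growth factor, was at 19.1, 19.8 and 20.1 CPM in sgPrrx1, 199.8, 171 and 172 CPM in mutant and 57.4, 59.96 and 57.2 CPM in WT MEF (log2 fold change -3.20, SE 0.08801, adjusted p = 2.32e-06). The receptors Pdgfra and Pdgfrb, which mark fibroblasts, did not pass the test and are named outside the rule, with Pdgfra at means of 15.9, 18.3 and 138 CPM in sgPrrx1, mutant and WT MEF.

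Wnt genes were grouped by role. Of 19 tested, 5 were higher in sgPrrx1, 11 were higher in mutant MEF and 3 did not pass the test, and their summed level was 51.6 to 59.6 CPM in sgPrrx1, 345 to 349.9 CPM in mutant and 129.8 to 144 CPM in WT MEF. With a replicate block, 7 and not 11 were higher in mutant MEF. Rspo2, a secreted agonist, was measured at 55.997, 58.5 and 58.2 CPM in mutant MEF against 1.11, 0.592 and 0.8302 CPM in sgPrrx1 MEF (log2 fold change -6.08, SE 0.211, adjusted p = 3.80e-06). Dkk3, of the Dickkopf family, was at 50.1, 53.05 and 49.3 CPM in mutant, 1.65, 1.24 and 1.37 CPM in sgPrrx1 and 10.9, 12.4 and 12.7 CPM in WT MEF. The ligand Wnt10b had means of 0.0359, 12.1 and 0.0703 CPM in sgPrrx1, mutant and WT MEF. Axin2 and Lef1, textbook targets of beta-catenin, were higher in sgPrrx1 MEF, with Axin2 at 4.81, 4.201 and 4.701 CPM against 0.793, 0.553 and 0.612 CPM (log2 fold change 2.81, SE 0.168, adjusted p = 2.64e-05). The ligand Wnt5a was also higher in sgPrrx1 MEF (1.66), where the WT mean was 49.8 CPM and the sgPrrx1 mean 23.3 CPM.

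Secreted immune factors were mostly higher in mutant MEF. Of 19 tested chemokine and cytokine genes, 5 were higher in sgPrrx1, 13 were higher in mutant MEF and 1 did not pass the test (94.7% called, against 56.2% of all tested genes). Csf1, the macrophage growth factor, was measured at 202, 259 and 288 CPM in sgPrrx1, 561, 534 and 488 CPM in mutant and 329, 297 and 343 CPM in WT MEF (log2 fold change -1.07, SE 0.1397, adjusted p = 8.33e-04). Cxcl12, the ligand of Cxcr4, was at 285, 276 and 260.0 CPM, 443, 439 and 457 CPM and 696, 664 and 771 CPM in the same order (log2 fold change -0.70, SE 0.06098, adjusted p = 1.34e-04). Both models were below WT for Cxcl12, and sgPrrx1 MEF more so. Cxcl1, which attracts neutrophils, was at 2.12, 3.14 and 2.72 CPM in sgPrrx1 and 64.3, 57.8 and 52.2 CPM in mutant MEF (log2 fold change -4.44, SE 0.174, adjusted p = 5.69e-06). The exceptions included Ccl5 and Cxcl10, chemokines of T cells, which were higher in sgPrrx1 MEF: Ccl5 was at 80.1, 67.5 and 50.4 CPM against 3.099, 4.36 and 5.17 CPM in mutant MEF (log2 fold change 3.98, SE 0.255, adjusted p = 3.64e-05), with WT MEF at 116, 122 and 103 CPM. Il6 was at most 0.305 CPM in all 9 cultures, and Csf2 and Csf3 were too low to be tested.

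Genes of MHC class I antigen presentation, which displays peptides to cytotoxic T cells, shared one direction. Of 16 tested, 12 were higher in sgPrrx1, 0 were higher in mutant MEF and 4 did not pass the test, and 9 were higher in sgPrrx1 MEF beyond 2-fold (median log2 fold change 1.38). Over all tested genes 27.8% were higher in sgPrrx1 and 28.4% in mutant MEF. On chromosome 17, where Psmb8, H2-Q6 and H2-Q7 lie, these shares were 48.3% and 8.35%, so part of this direction is common on that chromosome. The summed level of the 16 genes was 1821 to 1981 CPM in sgPrrx1, 872 to 895 CPM in mutant and 1783 to 1902 CPM in WT MEF, so the mutant cultures lay apart from both others. Nlrc5, the transactivator of class I genes, was measured at 92.9, 89.6 and 88.5 CPM in sgPrrx1, 16.7, 19.1 and 18.8 CPM in mutant and 68.3, 72.2 and 67.8 CPM in WT MEF (log2 fold change 2.32, SE 0.0746, adjusted p = 2.94e-06). Psmb8, a subunit of the immunoproteasome, was at 36.6, 32.001 and 28.2 CPM, 6.21, 7.31 and 8.57 CPM and 32.7, 31.2 and 29.8 CPM in the same order (log2 fold change 2.14, SE 0.151, adjusted p = 5.39e-05). H2-Q6 and H2-Q7 differed by 2.13 and 2.14, but class I genes are near copies of each other and differ between mouse strains, so single members are uncertain.

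Interferon-stimulated genes did not share that direction. Of 30 tested, 10 were higher in sgPrrx1, 16 were higher in mutant MEF and 4 did not pass the test, with 9 and 11 beyond 2-fold. Oasl1 and Ifit1 were higher in sgPrrx1 MEF, with Ifit1 at 50.6, 49.3 and 54.7 CPM against 10.8, 9.89 and 9.64 CPM in mutant MEF (log2 fold change 2.36, SE 0.0826, adjusted p = 3.83e-06). Oas1a, Usp18 and Ifi44 were higher in mutant MEF, with Usp18 at 11.6, 13.4 and 13.5 CPM against 0.541, 0.3101 and 0.147 CPM (log2 fold change -5.28, SE 0.354, adjusted p = 4.37e-05). WT means were 82.03 CPM for Ifit1 and 9.78 CPM for Usp18, so Ifit1 was lowest in mutant MEF and Usp18 in sgPrrx1 MEF. Of 10 tested complement genes, 2 were higher in sgPrrx1, 5 were higher in mutant MEF and 3 did not pass the test, led by C1ra at 10.3, 11.1 and 10.97 CPM in mutant and 2.08, 1.93 and 2.06 CPM in sgPrrx1 MEF. The 2 complement genes higher in sgPrrx1 MEF numbered 4 without mutant replicate 1 and 5 with all 9 cultures in 1 model.

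Proliferation genes were called about as often as all tested genes. Of 30 tested cell cycle genes, 6 were higher in sgPrrx1, 9 were higher in mutant MEF and 15 did not pass the test, that is 50.0% called, and 1 passed 2-fold. That gene was Ccnd1, which encodes cyclin D1 and was measured at 909.9, 849 and 794 CPM in sgPrrx1 MEF, 142, 154 and 168 CPM in mutant MEF and 662, 662 and 644 CPM in WT MEF (log2 fold change 2.47, SE 0.0918, adjusted p = 4.69e-06). Ccnd2 and Ccnd3 were higher in sgPrrx1 MEF too, by 0.63 and 0.46. The 9 genes higher in mutant MEF numbered 5 without mutant replicate 2, 5 without sgPrrx1 replicate 1 and 3 without sgPrrx1 replicate 2. With a replicate block they numbered 2. Of 24 p53 targets and inhibitors of cyclin-dependent kinases, 3 were higher in sgPrrx1, 13 were higher in mutant MEF and 8 did not pass the test (median log2 fold change -0.42), and 5 and not 3 were higher in sgPrrx1 MEF without mutant replicate 3. The inhibitors Cdkn1b and Cdkn1c were higher in mutant MEF, with Cdkn1b at 59.6, 37.3 and 26.4 CPM against 11.9, 14.1 and 17.8 CPM (log2 fold change -1.49, SE 0.314, adjusted p = 0.00685). Trp53 was higher in sgPrrx1 MEF (0.37). The viral E6 and E7 proteins act on p53 and on the retinoblastoma protein; their transcripts are not in the table.

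Imprinted genes, which are expressed from 1 parental allele, were mostly higher in sgPrrx1 MEF. Of 20 tested, 13 were higher in sgPrrx1, 4 were higher in mutant MEF and 3 did not pass the test (median log2 fold change 0.92). H19, the non-coding RNA next to Igf2, was measured at 114, 102 and 98.4 CPM in sgPrrx1 MEF, 1.19, 1.84 and 0.848 CPM in mutant MEF and 89.3, 83.6 and 77.5 CPM in WT MEF (log2 fold change 6.33, SE 0.285, adjusted p = 9.20e-06). Mest and Phlda2 were higher in sgPrrx1 MEF by 1.86 and 2.26. Snrpn and Peg10 were higher in mutant MEF, with Peg10 at 181, 183 and 198 CPM against 75.9, 75.1 and 58.2 CPM (log2 fold change -1.42, SE 0.115, adjusted p = 9.55e-05). H19 and Igf2 share an enhancer and both were nearly absent from mutant MEF, which kept 0.1998 CPM of Igf2 against 5.31 CPM in sgPrrx1 MEF.

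**Figure D4:**
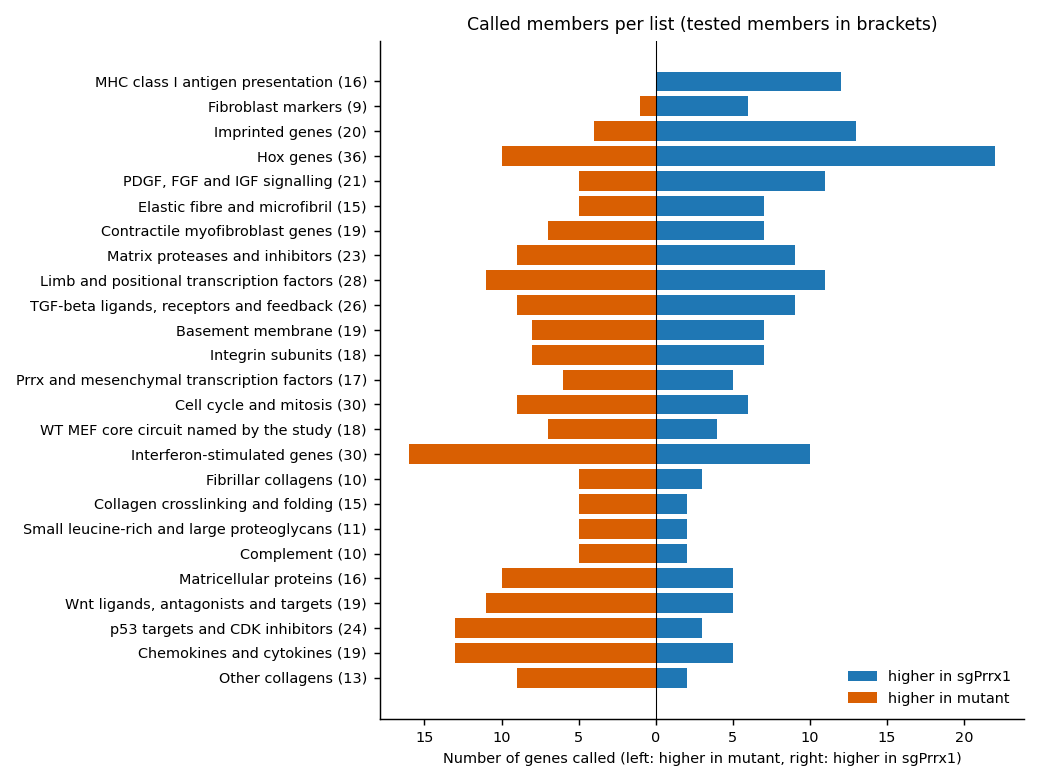
Number of genes called at an adjusted p under 0.05 in each gene list with 9 or more tested members (y axis, tested members in brackets), to the right for genes higher in sgPrrx1 MEF and to the left for genes higher in mutant MEF (x axis). MHC class I genes extend to the right alone, with 12 called and 0 to the left, while chemokines, p53 targets and other collagens extend further to the left.

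Markers of other cell types moved with these differences, and their part in them was not tested. The 10 epithelial markers summed to 23.3 to 27.4 CPM in sgPrrx1, 189.8 to 227 CPM in mutant and 17.4 to 19.5 CPM in WT MEF; nearly all of this was the keratin gene Krt19, at 189, 212 and 225 CPM in mutant MEF against 22.4, 22.9 and 19.6 CPM in sgPrrx1 MEF, while Krt14 was at 4.44, 4.14 and 3.24 CPM in sgPrrx1 MEF and 0 in mutant MEF. Neural and neural crest markers summed to 313 to 349.7 CPM in sgPrrx1, 162 to 211 CPM in mutant and 157 to 164 CPM in WT MEF. Tubb3, a neuronal tubulin, was at 196, 166 and 128 CPM in sgPrrx1, 4.13, 5.78 and 7.301 CPM in mutant and 67.3, 68.95 and 58.4 CPM in WT MEF (log2 fold change 4.84, SE 0.269, adjusted p = 1.98e-05), and Sox2 had a mean of 13.1 CPM in mutant MEF against 0.00814 CPM. These markers thus did not favour 1 model as a class. Adipocyte markers summed to 50.998 to 54.5 CPM in sgPrrx1, 33.3 to 35.5 CPM in mutant and 94.96 to 107 CPM in WT MEF, with Lpl higher in sgPrrx1 and Pparg higher in mutant MEF (3.80 and -2.35). Pericyte markers summed to 185 to 230.4 CPM in sgPrrx1, 119 to 156 CPM in mutant and 275 to 326 CPM in WT MEF, with Cspg4 higher in sgPrrx1 and Notch3 higher in mutant MEF (1.01 and -4.39). Haematopoietic markers summed to 20.8 to 23.6 CPM in sgPrrx1, 21.96 to 22.6 CPM in mutant and 15.8 to 18.6 CPM in WT MEF, and skeletal muscle markers to at most 0.378 CPM in any culture. Fibroblast markers themselves summed to 9369 to 11214 CPM in sgPrrx1, 5454 to 6595 CPM in mutant and 12318 to 12643 CPM in WT MEF. In bulk RNA, fewer cells of a type and less RNA per cell cannot be told apart.

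The difference between the models was uneven over the chromosomes. On chromosome 6, 76.5% of 654 tested genes were called and 64.4% were higher in mutant MEF, with a median log2 fold change of -0.63. Chromosomes 3 and 13 had medians of -0.33 and -0.30, and chromosomes 4, 17 and 18 had medians of 0.32, 0.33 and 0.49. Relative to WT, the medians of sgPrrx1 MEF stayed between -0.17 and 0.18, and those of mutant MEF ran from -0.35 (chromosome 18) to 0.55 (chromosome 6). Hoxa11, Hoxa13, Foxp1 and Cxcl12 lie on chromosome 6 and Psmb8, H2-Q6 and H2-Q7 on chromosome 17, where the chromosome medians have the direction of these genes. Other named genes there went against the median: of 17 named and called genes on chromosome 6, 12 were higher in mutant and 5 in sgPrrx1 MEF, Ptprz1 among the latter, and on chromosome 17 there were 5 in each direction. The number of copies of the chromosomes was not measured, and its part in the gene differences was not tested.

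Around Prrx1 itself (chr1:163245119-163315145 on mm10), 8 of the 20 nearest tested genes were called, 10 on each side being counted. Over all tested genes the share called was 56.2%. Beyond 2-fold the share over all tested genes was 14.2%, and Tnfsf18, Dnm3, Fmo1, Sele and Selp passed among the 20 neighbours. Of these neighbours, Dnm3 and Pigc were called higher in sgPrrx1 MEF (log2 fold changes 3.97 and 0.89), and the other called ones were higher in mutant MEF. The 3 with the largest differences were Fmo1, Selp and Sele, all higher in mutant MEF. Selp, the gene of P-selectin, was measured at 6.56, 8.52 and 8.15 CPM in mutant MEF, 0.398, 0.141 and 0.0733 CPM in sgPrrx1 MEF and 0.3103, 0.266 and 0.691 CPM in WT MEF (log2 fold change -5.26, SE 0.445, adjusted p = 1.17e-04). Fmo1 was at 1.46, 1.55 and 1.61 CPM in mutant MEF and 0 in sgPrrx1 MEF, and Sele was at 0.781, 1.196 and 1.07 CPM against 0.0569, 0.0564 and 0 CPM. Between 10 and 15 Mb beyond Prrx1, 10 of 23 tested genes (43.5%) differed beyond 2-fold, against 14.2% of all tested genes and 11.5 to 18.5% in the other stretches of chromosome 1. Ifi209 and Ifi202b, named above among the genes with no count in 1 model, lie in this stretch. The other stretches were unequal in length, with 29 to 365 tested genes, so a local cluster inside a long one would not show. Far from Prrx1, at -153 to -150 Mb, Sgk3, Cpa6, Prex2, Sulf1 and Slco5a1 also differed beyond 2-fold. The stretch at 10 to 15 Mb was therefore not shown to be the only such cluster. The mutant allele came from a 129S line and the strain label is C57BL/6. The sequence that the mutant cells carry around Prrx1 was not measured, and its part in these differences was not tested.

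**Figure D5:**
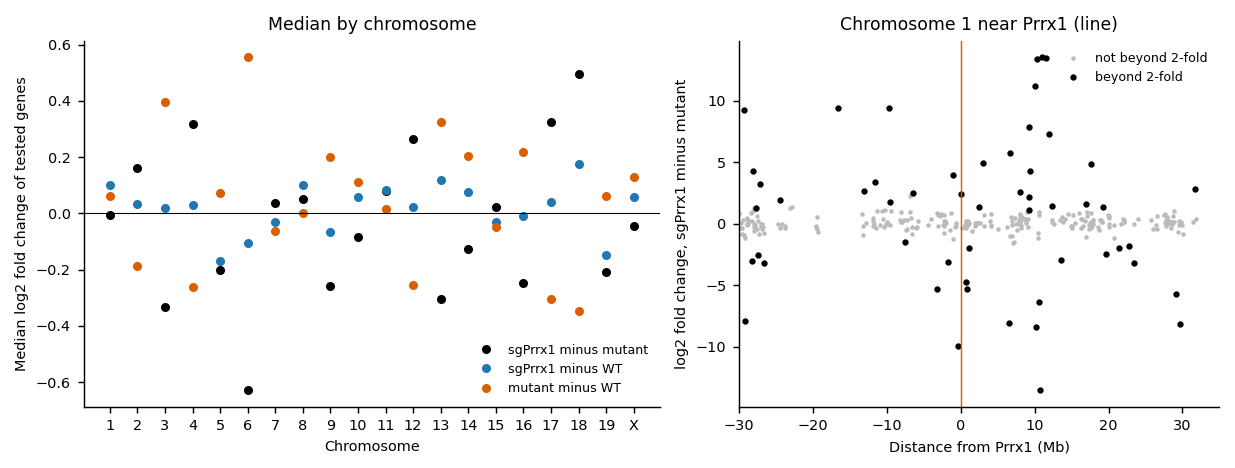
Left, the median log2 fold change (y axis) of the tested genes of each chromosome (x axis) for sgPrrx1 minus mutant (black), sgPrrx1 minus WT (blue) and mutant minus WT (orange); blue points stay near 0, and orange points reach 0.55 on chromosome 6. Right, fitted log2 fold changes of single genes on chromosome 1 (y axis) against their distance from Prrx1 in Mb (x axis), black where the difference passed 2-fold; values of genes with no count in 1 group depend on the fit and give no size, and black points crowd at 10 to 15 Mb.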

How the data were processed

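RNA-seq of 9 MEF cultures (3 sgPrrx1, 3 mutant, 3 WT) was taken from 1 table, grouped by genotype label; the wound-healing fibroblast and MMTV-CAF cultures were not used. The deposited values were counts, whole numbers of reads per gene not scaled for depth, which the authors made from TruSeq v2 paired-end reads with Trimmomatic, STAR on mm10, samtools and HTSeq. Whether the ComBat-seq step of their methods preceded deposit is not given in the sources used here. The annotation and strand setting of the counting are not given in the sources used here, so reads of overlapping genes cannot be told apart. All 9 columns were used and 0 were left without a sample. Gene names (24532) were matched to RefSeq symbols of GRCm38.p6, 23523 directly and 863 through older symbols, with 146 unmatched.

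Counts were analysed with edgeR 4.0.16 in R 4.3.3: filterByExpr, TMM scaling, glmQLFit and glmQLFTest on the 6 cultures compared, Benjamini-Hochberg adjusted p under 0.05, and glmTreat for 2-fold. The SE of a log2 fold change is its size divided by the square root of F. Folds against a group at 0 are lower bounds against a floor of 3 counts over the group. Alternatives were DESeq2 1.42.0, RLE and upper-quartile scaling, no filter, at least 10 counts in every culture, a replicate block, all 9 cultures in 1 model, each replicate left out, and counts divided by 2 (even values made up 51.3 to 60.1% of counts from 1 to 20), which was added after seeing the data. The steps were checked on counts simulated for this comparison, with known log2 changes of 1.5 put into 200 genes. Of 13337 tested genes, edgeR found 95% of the changed ones, and false calls made up 2.56%. DESeq2 found 93%, with 8.82% false calls. Every gene was simulated with 1 common dispersion (0.0231), and 200 genes changed where 7513 were called in the data. The check therefore does not give the error rates of these data. Members, gene lists and the rule for named genes were chosen with earlier results of these data known. The rule takes Prrx1 and Prrx2, the 10 largest differences in each direction at 5 CPM or more with groups that do not overlap, up to 4 called genes per list and direction at 1 CPM or more, the core circuit, defining matrix and soluble factors, sex chromosome markers, 3 Prrx1 neighbours and reference genes; not all are printed, and some items are not reported here. Tables and plots were made with Python 3.11.15, pandas 2.3.3, numpy 2.4.6, scipy 1.17.1 and matplotlib 3.10.9.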

Additional observations from a re-analysis of the deposited data

Results flagged for a closer look

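Among the named genes that differed beyond 2-fold between sgPrrx1 and mutant MEF, 12 lay on opposite sides of WT: every culture of 1 model was above and every culture of the other below all 3 WT cultures, with at least 1 CPM in both models, at least 2-fold from WT on each side and adjusted p under 0.05 against WT in each. They were drawn from the 234 named genes with a test, many of which were named for the size of their difference between the models. The share of all tested genes that meets these conditions was not counted, so 12 cannot be read as many or few. The value given is the log2 fold change of sgPrrx1 minus mutant MEF, whose test is the test of the difference between the models. Higher in mutant MEF were the matrix genes Col12a1 (-3.76) and Lama5 (-5.43), the integrin gene Itgb5 (-2.36) and the TGF-beta ligand Tgfb2 (-3.16). The inhibitory Smad gene Smad6 (-2.80), the growth factor Fgf7 (-3.20) and the Wnt modulator Dkk3 (-5.15) were also higher there. So were the chemokine Cxcl1 (-4.44) and the transcription factor Osr2 (-2.50). Genes higher in sgPrrx1 MEF were Itga6 (4.16), Igfbp6 (4.35) and Tubb3 (4.84).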

How the results depend on the processing

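The call for Prrx1 held under each alternative. No named gene reversed its direction under an alternative where either fit called it. Of the calls, 49.4% were higher in sgPrrx1 MEF, and 45.9% with upper-quartile scaling. The 7513 calls became 8001 with DESeq2, 7497 with RLE scaling, 7582 with upper-quartile scaling, 7552 without a filter, 6709 with at least 10 counts in every culture, 7650 with all 9 cultures in 1 model and 7366 with counts divided by 2, an alternative chosen after seeing the data. Leaving out 1 culture gave 6215 to 7579 calls. Requiring 2-fold left 1898 calls, 958 higher in sgPrrx1 and 940 in mutant MEF. For sgPrrx1 against WT, leaving out 1 culture gave 3830 to 6340 calls around 5764, with 3830 without WT replicate 2 and 3834 without sgPrrx1 replicate 2; for mutant against WT it gave 6647 to 8177 around 8155. With the replicate block there were 5268 calls, of which 5259 were among the main calls. Same-numbered cultures of the 2 models had deviations correlated at -0.61, 0.15 and -0.59, so the numbers do not pair them. Of 234 named genes, 23 lost their call under at least 1 alternative, 22 of them under the block. A call was gained by 7 under at least 1 alternative, and 0 reversed direction with a call in either fit. Direction was not compared for genes called in neither fit or removed by a filter. Requiring 10 counts in every culture removes genes that 1 group lacks, and left 4 of the 10 Hox genes higher in mutant MEF. With 71250774 counts or more per culture, a gene at 0 in 3 cultures was below about 0.013 CPM over the group.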
